A study of Homo sapiens with 15 samples.

Results

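The HOXC cluster is 1 of the 4 human clusters of HOX genes and lies on the long arm of chromosome 12. Its 9 protein-coding genes, HOXC4, HOXC5, HOXC6, HOXC8, HOXC9, HOXC10, HOXC11, HOXC12 and HOXC13, were taken by name, and all 9 were found among the 58302 genes of the count tables. RNA-seq was labelled for 5 groups of 3 libraries, and the 3 libraries of C4-2B cells are described here. C4-2B is an established, castration-resistant prostate cancer line that derives from LNCaP, and it is labelled as adenocarcinoma and wild type, with no transfection or drug given. It served as the parental line of neuroendocrine-like cells. The DKD and ER groups, each with a scrambled control or an siRNA against Pax5, were not analysed here, so no comparison between lines or treatments was made. The labels do not say that the 3 C4-2B libraries came from separate cultures, so the spread between them may be technical.

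HOX genes encode homeodomain transcription factors that give cells their position along the body axis. They stand in a row on each chromosome, and in the embryo the genes at the low-number end are used further towards the head than those at the high-number end. Genes of the same number in the 4 clusters are paralogues, and HOX proteins bind DNA together with the TALE homeodomain proteins of the PBX, MEIS and PKNOX families. Polycomb proteins keep HOX clusters silent where they are not used, and trithorax proteins keep them open. In adult prostate and prostate tumours the best known member is HOXC6, whose transcript is raised in tumours and is used in urine tests, and HOXB13 of the HOXB cluster is a marker of prostate epithelium.

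The first question was how much of each HOXC gene the deposited counts could show, because exons of this cluster lie on top of each other. On GRCh38 the 9 genes ran from HOXC13 to HOXC4 on the plus strand, over chromosome 12 from 53938765 to 54056030, a span of 117.3 kb. Reads that touched exons of several genes were left uncounted, so bases shared with another gene gave no counts. The counts set no strand, so RNA of the other strand or unspliced RNA of a surrounding gene could add to a level. How much they added was not tested. Exons of 6 of the 9 genes shared bases with another gene, and HOXC8, HOXC11 and HOXC12 shared none. The share was largest in HOXC5, at 59.9% of its exon bases, followed by HOXC4 at 17.8%, HOXC6 at 15.7%, HOXC10 at 9.82%, HOXC9 at 9.71% and HOXC13 at 7.10%. Of all genes in the tables, 27.9% shared at least 1 exon base with another gene.

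The sequences below show the coding bases of HOXC13 that could give no counts, and the place where HOXC4 begins inside an exon of HOXC6. The coding bases were taken from GENCODE release 44 and the letters from the GRCh38 sequence, 5′ to 3′ on the plus strand. The HOXC13 stretch is the end of its first exon, at chr12:53939471-53939642, which lies under an exon of the antisense gene HOXC13-AS.
HOXC13: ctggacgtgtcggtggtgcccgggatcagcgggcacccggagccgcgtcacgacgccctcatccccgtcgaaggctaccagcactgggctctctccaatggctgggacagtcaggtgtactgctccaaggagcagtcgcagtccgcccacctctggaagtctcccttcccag

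The HOXC13 stretch of 172 bases is 17.4% of that gene's coding bases, and its GC content was 66.3%. All 1081 bases of the second HOXC5 exon were covered by ENSG00000273046, a long non-coding gene, and 611 of them also by ENSG00000273049, which is listed as protein-coding and joins exon bases of HOXC10 and HOXC5. Thus HOXC5 counts came from its first exon alone, the 724 bases from 54032853 to 54033576. In HOXC10, 20.5% of the coding bases were shared, with HOXC-AS3 or with ENSG00000273049. In HOXC4, HOXC6 and HOXC9 the shared bases held 0 coding bases.

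HOXC4, HOXC5 and HOXC6 are known to give transcripts that start at 1 common leader exon. In the set of RefSeq promoters used here (GRCh38.p14), HOXC4 and HOXC5 have 1 and the same window. It runs from 250 bases before to 50 bases after a start at 54016888. This set held an entry for these 2 of the 9 HOXC genes only. All 300 bases of the window lie under a HOXC6 exon of the deposited tables. The end of it is shown because the HOXC4 gene begins there, with the 7 bases that HOXC4 and HOXC6 share in capitals, at chr12:54016908-54016937 on the plus strand.
HOXC4 and HOXC5: agagcctaaccattgccagggaaACCTGCC

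The first HOXC4 exon, 484 bases from 54016931 to 54017414, lies wholly inside that HOXC6 exon and is untranslated in both genes, so reads from the common leader were counted for neither. In the deposited tables HOXC5 begins further on, at 54032853, and shares no exon base with HOXC4 or HOXC6. The whole 300-base window was 51.7% GC against a median of 58.7% over all promoters, and held 15 CpG dinucleotides against a median of 14. It held 2 matches to CCAAT on either strand, a motif found in 34.6% of 35116 promoters of this length. TATAAA, found in 11.5% of promoters, and TGATNNAT, the joint PBX and HOX motif, found in 7.40%, had 0 matches in these letters.

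**Figure D1:**
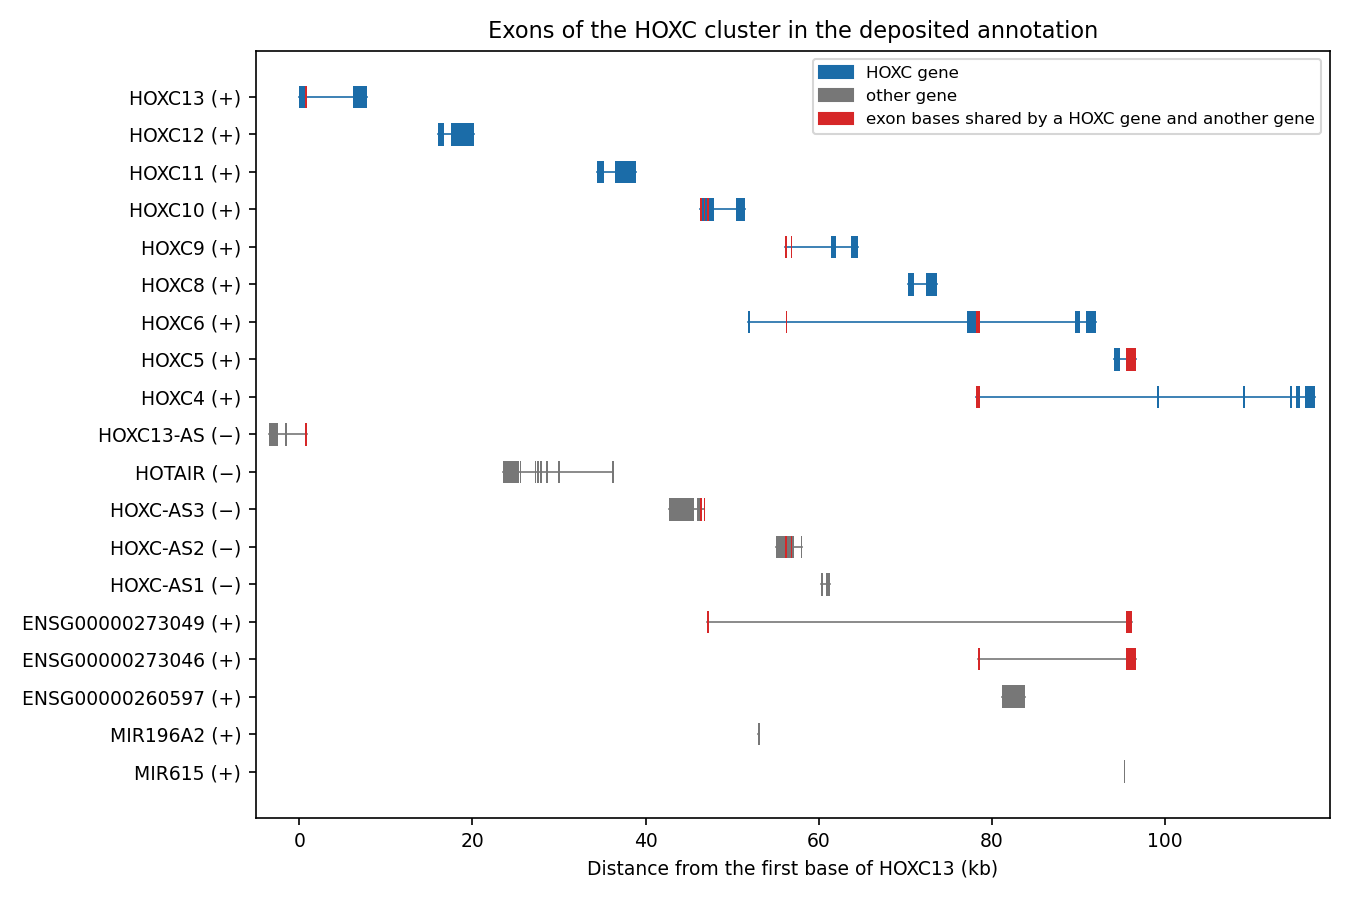
Exons of the 9 HOXC genes (blue) and of other genes in the cluster (grey), by distance in kb from the first base of HOXC13. Strand is in brackets, lines join the exons of a gene, red marks exon bases that a HOXC gene shares with another gene, and very short pieces are widened to be visible. The second exon of HOXC5 and the first exon of HOXC4 are red over their whole length, and HOXC8, HOXC11 and HOXC12 hold no red.

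Next, the level of each gene was described in TPM, a measure of transcript abundance in which the count per base of exon is scaled to the sum over all genes of a library. The libraries held 44992971, 49569026 and 46232076 counts. HOXC RNA was made mostly from HOXC6 and from the genes HOXC13, HOXC12, HOXC9 and HOXC8, while HOXC10 and HOXC11 in the middle of the row were low. With 1 TPM or more in each library taken as expressed, 7 of the 9 HOXC genes were expressed, against 32.8% of all genes and 61.2% of protein-coding genes. The median HOXC gene had 8.26 TPM, against 0.171 over all genes and 5.88 over protein-coding genes. In bulk RNA, fewer cells with a transcript and less RNA per cell cannot be told apart.

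HOXC6 (ENSG00000197757), the member tied to prostate tumours, had 1418, 1565 and 1627 counts in replicates 1, 2 and 3. Its levels were 27.6, 27.8 and 31.1 TPM, with a mean of 28.8 ± 1.97 (SD, n = 3). It was the highest HOXC gene in every library, above 74.9% of protein-coding genes, and took 39.0% ± 2.48 of the summed HOXC TPM (SD, n = 3).

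HOXC13 (ENSG00000123364), which controls keratin genes of hair and nail, had 500, 520 and 559 counts. Its levels were 14.2, 13.5 and 15.6 TPM, with a mean of 14.4 ± 1.08 (SD, n = 3). It ranked next to HOXC6 although it lies at the far end of the row, and its range did not overlap that of HOXC6. HOXC12 (ENSG00000123407), its neighbour in the posterior part of the cluster, had 462, 551 and 410 counts and 9.56, 10.4 and 8.32 TPM, with a mean of 9.42 ± 1.03 (SD, n = 3). Together HOXC12 and HOXC13 took 32.3% ± 0.0711 of the summed HOXC TPM. Their single shares had SDs of 1.44 and 1.40, so the small SD of their sum is not a measure of precision.

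HOXC9 (ENSG00000180806), known for setting the thoracic identity of motor neurons, had 220, 240 and 185 counts. Its levels were 9.04, 8.98 and 7.46 TPM, with a mean of 8.49 ± 0.896 (SD, n = 3). HOXC8 (ENSG00000037965), which patterns motor neurons at the level of the forelimb, had 238, 255 and 212 counts and 8.69, 8.48 and 7.60 TPM, with a mean of 8.26 ± 0.580 (SD, n = 3). Both genes lie within the 40200 bases spanned by HOXC6, HOXC8 wholly inside 1 of its introns. Unspliced HOXC6 RNA over their exons cannot be told apart from their own RNA in counts per gene. The 3 genes HOXC6, HOXC8 and HOXC9 took 61.7% ± 0.475 of the summed HOXC TPM.

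HOXC4 (ENSG00000198353), an anterior member that also acts in antibody class switching in B cells, had 77, 92 and 55 counts. Its levels were 1.95, 2.12 and 1.37 TPM, with a mean of 1.81 ± 0.396 (SD, n = 3). HOXC5 (ENSG00000172789), the other anterior member, had 39, 37 and 55 counts and 1.49, 1.29 and 2.06 TPM, with a mean of 1.61 ± 0.402 (SD, n = 3). The anterior pair was therefore low, at 4.64% ± 0.0380 of the summed HOXC TPM, and replicate 3 was the lowest library for HOXC4 and the highest for HOXC5. The shares of HOXC4 and HOXC5 alone had SDs of 0.543 and 0.535, so the small SD of their sum is not a measure of precision. HOXC5 lies wholly inside 1 intron of HOXC4, on the same strand. Unspliced HOXC4 RNA over HOXC5 exons cannot be told apart from HOXC5 RNA in counts per gene.

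HOXC10 (ENSG00000180818), which patterns lumbar motor neurons and the hindlimb, had 28, 45 and 23 counts. Its levels were 0.829, 1.21 and 0.668 TPM, with a mean of 0.903 ± 0.280 (SD, n = 3), on either side of the level taken as expressed. HOXC11 (ENSG00000123388), the next gene of the posterior group, had 2, 8 and 2 counts and 0.0423, 0.154 and 0.0415 TPM. It was the lowest member in every library, and replicate 2 held most of its 12 counts (exact 95% Poisson interval 6.20 to 21.0, too narrow because mates were counted separately). Its mean was 0.0792 TPM, and 0.0419 TPM without replicate 2. HOXC10 and HOXC11 took 1.33% ± 0.465 of the summed HOXC TPM although they lie between the higher genes HOXC9 and HOXC12.

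**Figure D2:**
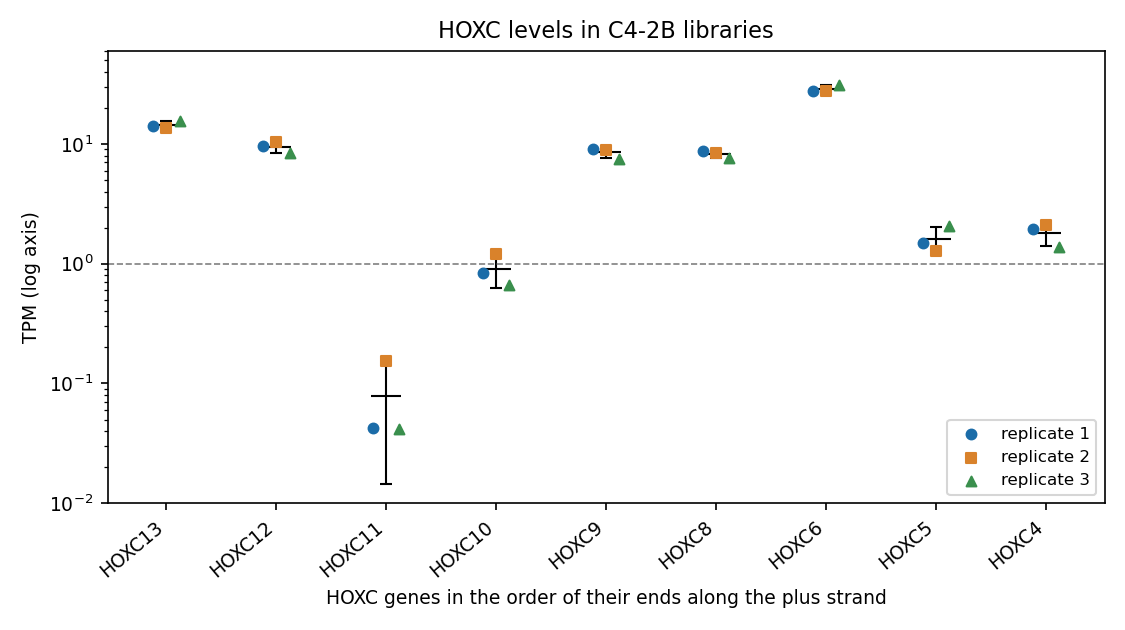
TPM of each HOXC gene in each C4-2B library on a log axis, with genes in the order of their ends along the plus strand. Points are libraries, bars give the mean and SD (n = 3), and the dashed line marks 1 TPM. HOXC6 sits at 27.6 to 31.1 TPM, HOXC11 lies between 0.0415 and 0.154 TPM, and HOXC10 lies on both sides of the line.

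The order of the levels was then read against the spread of the libraries. HOXC6 was 2.00-fold higher than HOXC13 (95% interval 1.89 to 2.12 from the summed counts), and HOXC13 was 1.53-fold higher than HOXC12 (1.42 to 1.64), with no overlap of ranges at either step. HOXC12, HOXC9 and HOXC8 formed a group whose neighbours overlapped, at ratios of 1.11 (1.01 to 1.22) and 1.03 (0.924 to 1.147). Below them HOXC8 was 4.56-fold higher than HOXC4 (3.90 to 5.30), again without overlap. HOXC4 and HOXC5 overlapped, with a ratio of 1.12 (0.909 to 1.42) that was 0.933 without replicate 2. HOXC5 was 1.79-fold higher than HOXC10 (1.34 to 2.32), where the lowest HOXC5 library, at 1.29 TPM, stood just above the highest HOXC10 library, at 1.21 TPM. HOXC10 was 11.4-fold higher than HOXC11 (6.13 to 22.4), and 17.9-fold without replicate 2. These intervals cover counting error only and are too narrow, because both mates of a read pair were counted. Position did not order the levels, with a rank correlation of −0.15 over the 9 genes, which share libraries and are given as a description.

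To see how far the shared exons set these levels, the TPM of every gene was computed again on the exon bases that lie under no other gene. HOXC5 moved most, by 2.38-fold to 3.83 ± 0.955 TPM (SD, n = 3), since only its first exon could be counted. HOXC4 moved to 2.10 ± 0.459 TPM and HOXC6 to 32.6 ± 2.23 TPM. The order of the anterior pair turned with this choice, as HOXC4 stood at 0.548 times HOXC5 on free bases and HOXC5 was the higher gene in all 3 libraries. Unspliced HOXC4 RNA could add to the HOXC5 level, and how much it added was not tested. The other 7 steps of the order kept their direction. HOXC12 and HOXC9 came closest, with a ratio of 1.00, and the ratio of HOXC5 to HOXC10 rose to 4.02.

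**Figure D3:**
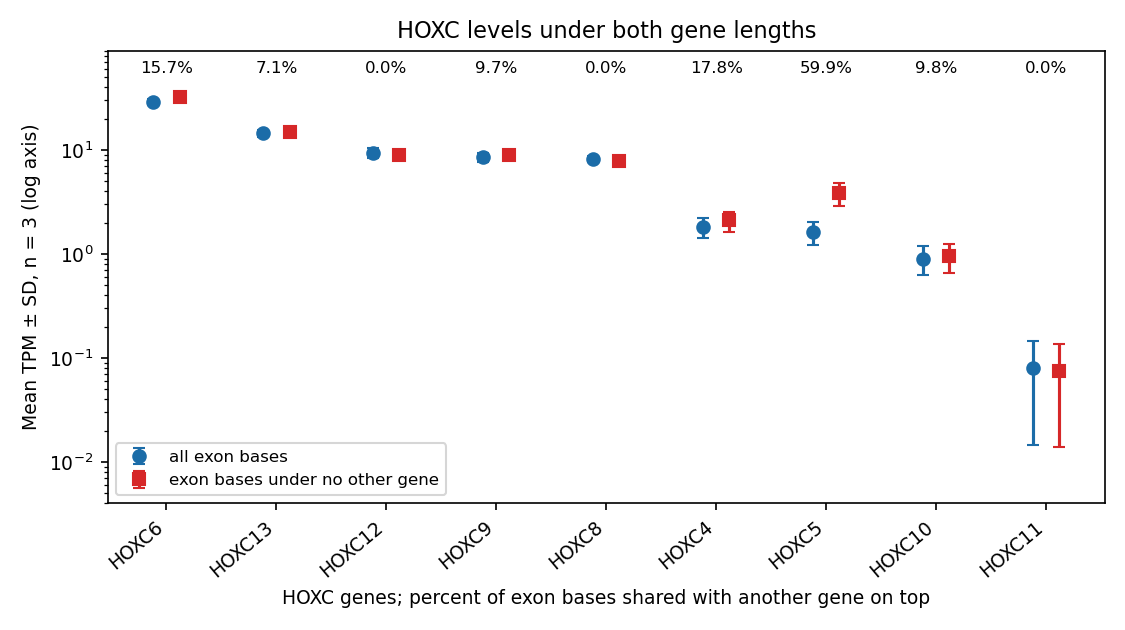
Mean TPM of each HOXC gene (± SD, n = 3, log axis) computed on all exon bases (blue circles) and on exon bases under no other gene (red squares), with genes ordered by mean level and the percent of shared bases above each. The squares and circles lie close together except for HOXC5, whose level rises from 1.61 to 3.83 TPM and passes that of HOXC4.

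Other transcripts of the cluster were taken next. Apart from the HOXC genes, 14 genes lie in or across the span, and 7 of these had 0 counts in all 3 libraries. HOXC13-AS, a non-coding gene on the opposite strand that overlaps the first exon of HOXC13, had 83, 106 and 82 counts and 4.25 ± 0.423 TPM (SD, n = 3), the highest of the antisense genes. HOTAIR, a non-coding RNA between HOXC12 and HOXC11 that is known to bind Polycomb proteins, had 1, 6 and 0 counts and a mean of 0.0571 TPM. Without replicate 2 its mean was 0.0133 TPM, so both HOTAIR and HOXC11, whose gene it overlaps on the other strand, took most of their few counts from that library. HOXC-AS3 had 4, 0 and 2 counts, and HOXC-AS2 had 4, 3 and 2. As the counts set no strand, reads over the antisense genes cannot be assigned to their strand.

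HOXC-AS1, which lies antisense within the span of HOXC9, was uneven among the libraries. It had 31, 12 and 8 counts, with 3.61, 1.27 and 0.915 TPM and a mean of 1.93 ± 1.47 (SD, n = 3). Without replicate 1 the mean was 1.09 TPM. All its exons lie in introns of HOXC9 and HOXC6, so unspliced RNA of these genes cannot be told apart from it. HOXC9 itself differed little between replicates 1 and 2, at 9.04 and 8.98 TPM, and was lowest in replicate 3, at 7.46 TPM.

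The non-coding gene ENSG00000260597, a single exon of 2680 bases from 54019910 to 54022589 that lies in introns of both HOXC6 and HOXC4 on their strand, overlapped HOXC13 in level. It had 583, 668 and 572 counts and 15.01, 15.66 and 14.45 TPM, with a mean of 15.04 ± 0.605 (SD, n = 3). Its counts were 5.14 times those of HOXC4 and HOXC5 together. Whether these reads came from a transcript of its own or from unspliced RNA of the genes around it cannot be told apart in counts per gene. ENSG00000273046 and ENSG00000273049 had 0 counts, and 99.8% and 100% of their exon bases were shared, so these zeros say nothing of their levels. The same holds for ENSG00000275589 and ENSG00000277994, with 0 counts and 100% of their exon bases under HOTAIR exons.

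The cluster also holds genes of a pair of microRNAs. Their mature sequences are given from RefSeq (GRCh38.p14) with bases 2 to 8, the seed that pairs with targets, in capitals, because miR-196a is known to act on HOX transcripts such as HOXB8. The seed of the 5p strand of miR-196a was shared with hsa-miR-196b-5p, whose gene lies in the HOXA cluster, and the other 3 seeds were shared with no other entry.
hsa-miR-196a-5p: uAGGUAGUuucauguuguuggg
hsa-miR-196a-3p: cGGCAACAagaaacugccugag
hsa-miR-615-5p: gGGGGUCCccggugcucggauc
hsa-miR-615-3p: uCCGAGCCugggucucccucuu

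MIR196A2, in the first intron of HOXC6, had 0 counts in each library, where 3 counts over the 3 libraries would be 0.604 TPM. MIR615, in the intron of HOXC5 and so also inside an intron of HOXC4, had 1, 1 and 10 counts. Its mean was 2.81 TPM, and 0.687 TPM without replicate 3. The library with most MIR615 counts was also the highest for HOXC5 and the lowest for HOXC4. Counts from these libraries over a short hairpin gene may come from longer RNA that runs through it, which was not tested. They do not measure mature microRNA.

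Whether the HOXC genes differed among the 3 libraries was tested with a chi-square test of each gene's counts against the library sizes, with each chi-square divided by 2 because both mates were counted. Of the 8 HOXC genes with at least 30 counts, 0 passed an adjusted p of 0.05, where 0.792% of 22229 genes tested did. At an unadjusted p under 0.05 there were 2 of the 8, HOXC6 (adjusted p = 0.43) and HOXC12 (adjusted p = 0.438), where 11.3% of all genes tested passed that limit. HOXC6 was highest in replicate 3, and HOXC12 was highest in replicate 2 and lowest in replicate 3. With the chi-square undivided, these 2 genes passed (adjusted p = 0.0190 and 0.0211), where 17.3% of all genes did. HOXC-AS1 had an adjusted p of 0.223, and 0.00156 undivided. This test compares libraries, not conditions.

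To place the HOXC cluster among the HOX genes, the summed TPM of the 4 clusters was compared within each library. The HOXC sum was 73.5, 73.9 and 74.3 TPM, a mean of 73.9 ± 0.392 (SD, n = 3), although single members moved by more. An SD over 3 libraries is itself uncertain, so this small spread does not show that the sum was steady. The 11 HOXA genes summed to 53.6, 45.2 and 47.4 TPM, so that HOXC was 1.52-fold higher (log2 ratio 0.60 ± 0.13 SD, n = 3). The 10 HOXB genes summed to 272, 269 and 263 TPM, 3.63-fold above HOXC (log2 ratio −1.86 ± 0.03), and HOXB13 alone made up 89.8% of this. The 9 HOXD genes summed to 1.67, 2.28 and 1.95 TPM, with HOXC 37.9-fold higher (log2 ratio 5.24 ± 0.22).

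Each of these ratios had the same direction in 3 of 3 libraries. The exact two-sided sign-flip permutation test gave p = 0.25 for each, the smallest value that 3 libraries allow, and 0.25 after Benjamini-Hochberg adjustment over the 3 comparisons. When the highest gene of each cluster was left out, HOXC was above HOXB (log2 ratio 0.72). By the same limit of 1 TPM in each library, 7 of 9 HOXC genes, 5 of 11 HOXA genes, 5 of 10 HOXB genes and 1 of 9 HOXD genes were expressed. Over all protein-coding genes the share was 61.2%. The median gene had 8.26 TPM in HOXC, 1.03 in HOXA, 1.49 in HOXB and 0.0212 in HOXD.

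Set beside paralogues of the same number, HOXC genes led in some groups and trailed in others. In group 6, HOXC6 at 28.8 TPM was 7.04-fold above HOXA6 (4.10 TPM) and 10.4-fold above HOXB6 (2.76 TPM). In group 8, HOXC8 at 8.26 TPM stood against HOXB8 at 0.129 TPM, which rests on 2, 4 and 6 counts, and HOXD8 with 2, 8 and 0 counts. HOXC8 was therefore the only group 8 gene above 1 TPM, and HOXC12 likewise stood alone in group 12, where HOXD12 had 0 counts.

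In group 9, HOXC9 at 8.49 ± 0.896 TPM and HOXB9 at 9.69 ± 1.48 TPM overlapped (SD, n = 3), while HOXA9 had 0.649 TPM, and HOXD9 had 0 counts. In group 4, HOXC4 at 1.81 TPM was 1.77-fold above HOXA4 and 5.32-fold above HOXB4, and HOXD4 had 0 counts. Exons of other genes cover 47.3% of the exon bases of HOXA4, and on free bases its 1.86 TPM lay close to the 2.10 TPM of HOXC4.

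HOXC genes were below their HOXA paralogues in groups 5, 10 and 11. HOXA5 at 9.77 TPM was 6.06-fold and HOXB5 at 2.38 TPM was 1.48-fold above HOXC5, but on free bases HOXC5 at 3.83 TPM passed HOXB5 at 2.35 TPM. That HOXC5 level may hold unspliced HOXC4 RNA, which was not tested. HOXA10 at 16.1 TPM was 17.8-fold above HOXC10, and HOXD10, with 4, 0 and 2 counts, lay below HOXC10. HOXA11 at 7.997 TPM was 101-fold above HOXC11, and 193-fold without replicate 2. The range of HOXC11 overlapped that of HOXD11 (1, 2 and 0 counts). The gap at HOXC10 and HOXC11 thus lay at numbers where HOXA genes were expressed.

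In group 13 all 4 clusters had an expressed gene, and in groups 5 and 6, which have no HOXD gene, all 3 members were expressed. HOXB13, the prostate marker, had 243, 245 and 234 TPM and was 16.7-fold above HOXC13. HOXC13 at 14.4 TPM was in turn 2.05-fold above HOXA13 (7.04 TPM) and 8.11-fold above HOXD13 (1.78 TPM). None of these ranges overlapped.

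**Figure D4:**
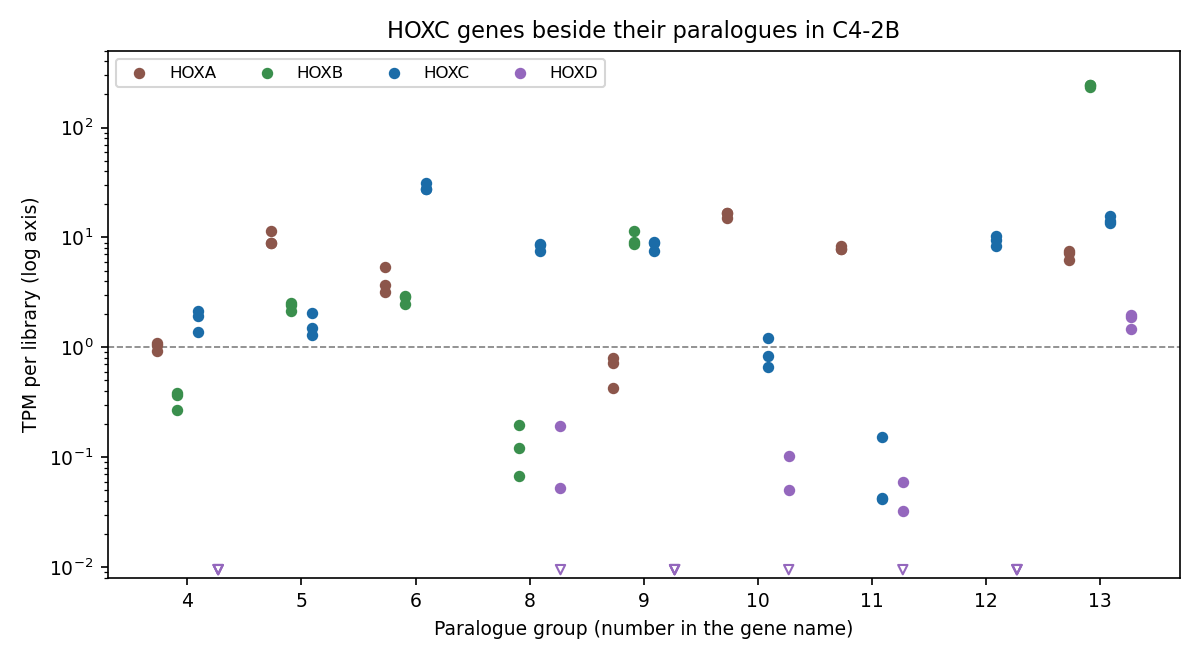
TPM of HOX genes in each C4-2B library on a log axis, by paralogue group (the number in the gene name) and cluster (colour). Each point is 1 library, open triangles at the bottom mark libraries with 0 counts, and the dashed line marks 1 TPM. HOXC genes lie above the other clusters in groups 4, 6, 8 and 12, and HOXB13 stands at 234 to 245 TPM in group 13.

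HOX proteins bind DNA together with TALE proteins, so the TALE genes were read beside the cluster. Of 8 such genes, 5 had at least 1 TPM in all 3 libraries, a share close to the 61.2% of protein-coding genes. PBX2, a partner of HOX proteins of many groups, was highest, with 29.8, 30.6 and 28.8 TPM, at a level like that of HOXC6. PKNOX1, which binds PBX proteins, followed with 12.9 ± 0.870 TPM, and PBX3 and PBX4 had 5.74 ± 0.386 and 5.23 ± 0.384 TPM (SD, n = 3). MEIS1, the partner of posterior HOX proteins, had 2.03 ± 0.181 TPM. PKNOX2 and MEIS3 lay below 1 TPM, at 0.814 and 0.402, and MEIS2 had 6, 9 and 7 counts. Of the 7 TALE genes tested, 0 differed among libraries at an adjusted p of 0.05 (chi-square test, 0 of 8 HOXC genes and 0.792% of all genes).

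The genes of chromatin regulators that act on HOX clusters were all expressed, 8 of 8, against 61.2% of protein-coding genes. Of the Polycomb genes, EZH2, the methyltransferase of H3K27, had 60.8 ± 2.11 TPM, and its binding partners SUZ12 and EED had 60.6 ± 1.72 and 12.6 ± 0.487 TPM (SD, n = 3). EZH1, the paralogue of EZH2, had 14.01 ± 1.40 TPM, with an adjusted p of 0.0906 among libraries. The H3K27 demethylases KDM6A and KDM6B had 184 ± 3.45 and 70.6 ± 1.93 TPM. The trithorax genes KMT2A and MEN1 had 41.8 ± 0.646 and 42.7 ± 1.41 TPM. Each of the 8 except EED and EZH1 was above the highest HOXC gene, and 0 of 8 differed among libraries at an adjusted p of 0.05.

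**Figure D5:**
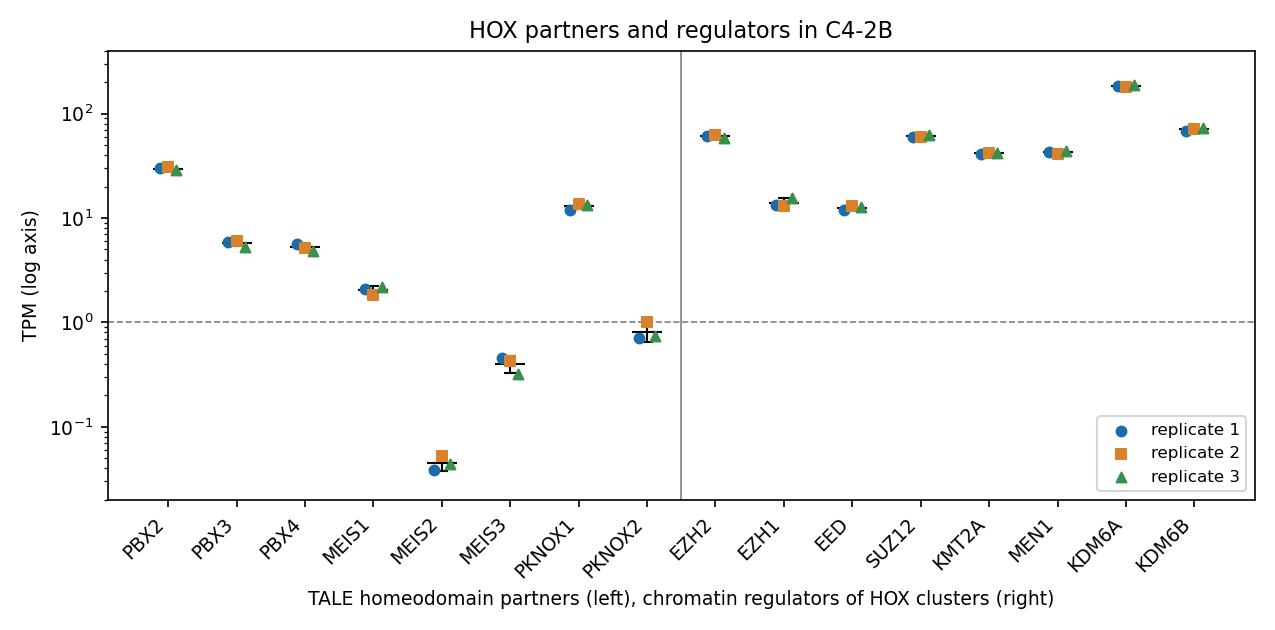
TPM of TALE partner genes (left of the line) and of chromatin regulators of HOX clusters (right) in each C4-2B library on a log axis. Points are libraries, bars give the mean and SD (n = 3), and the dashed line marks 1 TPM. MEIS2, MEIS3 and PKNOX2 lie below 1 TPM, and the 8 regulators lie between 12.03 and 188 TPM.

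The genes that flank the cluster were expressed on both sides. Beyond HOXC13, ATP5MC2 of the mitochondrial ATP synthase had 124 ± 1.23 TPM, CALCOCO1 had 11.9 ± 0.610 TPM and ATF7 had 14.5 ± 1.00 TPM (SD, n = 3). Exons of other genes cover 43.9% of the ATF7 exon bases, and on free bases it had 24.6 TPM. Beyond HOXC4, SMUG1, a DNA repair glycosylase, had 23.0 ± 1.40 TPM, CBX5, which encodes the heterochromatin protein HP1 alpha, had 102 ± 1.48 TPM, and HNRNPA1, an RNA-binding protein gene, had 397 ± 2.29 TPM. HOXC11 and HOXC10 therefore stood as low points between expressed genes on both sides.

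The labelled cell type was checked with marker genes. The luminal prostate markers KLK3, KLK2, TMPRSS2, KRT8 and KRT18 were all expressed, from 197 TPM for KRT8 to 1988 TPM for KLK3, and summed to between 2947 and 2977 TPM. Basal markers summed to between 1.01 and 1.14 TPM, with 1 count of KRT5 in all. Of the neuroendocrine markers, CHGA had 1.38 TPM, SYP had 1.31 TPM, and SNAP25 had 0, 3 and 0 counts. COL1A1 had 7.09 TPM, while the other stromal markers, COL1A2 and DCN, had 0 counts, and the leukocyte marker PTPRC had 2, 0 and 0 counts. The share of other cell types in the HOXC levels was not tested.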

How the data were processed

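The 3 C4-2B libraries were made from total RNA depleted of ribosomal RNA, with a directional kit, and sequenced as read pairs. Per the submitters' processing notes, reads were aligned with STAR 2.7.0f. The authors deposited raw counts of reads over genes, taken with featureCounts (Subread 1.6.3) on Ensembl release 90 and GRCh38, with no normalization. The recorded command set no strand and did not count pairs as fragments, so mates were counted separately. Reads over exons of more than 1 gene, or aligned to several places, were not counted. Gene lengths, another deposited column, equalled the union of exons for all 58302 genes. The other groups were not analysed here.

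TPM was computed from deposited counts and lengths, scaled to the sum over all genes. Genes with 1 TPM or more in each of the 3 libraries were taken as expressed. Alternatives were free exon bases, other denominators, CPM, other thresholds and leaving out each replicate. The libraries were compared by a chi-square test (2 degrees of freedom, divided by 2) of counts against library sizes scaled by TMM (edgeR 4.0.16, R 4.3.3), over genes with at least 30 counts, with Benjamini-Hochberg adjustment. DESeq2 1.42.0 size factors were an alternative. The test was checked on simulated counts made as Poisson draws times 2. Unchanged genes held no spread beyond counting there, so the check does not cover further spread between libraries. Neighbouring levels were compared by exact Clopper-Pearson intervals (95%) of their summed counts per length. Single counts have exact Poisson intervals, which are too narrow because both mates were counted. For 0 counts, the TPM of 3 counts over the 3 libraries is given as a scale, not as the limit of an interval. Depth was 44992971 to 49569026 counts, and intervals cover counting error only. Cluster sums were compared with an exact sign-flip permutation test. Genes named are the 9 HOXC genes, all other genes in or across the cluster, the 3 nearest protein-coding genes on each side, HOX paralogues, TALE genes, chromatin regulators and cell type markers. A gene of the lists is not reported here, and its list is given without it. Members and lists were chosen with earlier results of these data known. Gene types came from GENCODE release 44 (GRCh38), symbols from a name table matched by Ensembl identifier for 57532 genes. Counts were analysed with Python 3.11, numpy 2.4.6, pandas 2.3.3 and scipy 1.17.1.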

Additional observations from a re-analysis of the deposited data

How the results depend on the processing

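No paired analysis was possible because 1 group alone was analysed, so no groups share replicate numbers. Direction held for each cluster ratio under every alternative except HOXC against HOXB without the highest gene of each cluster, where the log2 ratio was 0.72 in place of −1.86, by construction, since HOXB13 was left out. The number of genes that differed between libraries was 176, and 3835 with the chi-square undivided. HOXC genes among these were 0, and 2 undivided. With 1 replicate left out the number of genes was 38 to 223. It was 180 with DESeq2 size factors, 175 with total counts as sizes, 145 with at least 10 counts and 118 with at least 1 count. The number of expressed HOXC genes was 7, and was 8 at 0.5 TPM, 5 at 2 TPM, 6 at 1 CPM and 7 on free exon bases. TPM scaled without mitochondrial and the 10 most abundant genes was 1.45-fold higher for each HOXC gene, and 1.39-fold higher when scaled to protein-coding genes. On free bases the ratio to the reported level was 0.953 to 2.38, the highest for HOXC5. With 1 replicate left out, levels were 0.528 to 1.24 times the reported ones, the lowest for HOXC11 without replicate 2. Depth limits HOXC11, HOTAIR, HOXC-AS2, HOXC-AS3 and MIR615, which rest on 6 to 12 counts.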
